A study of Mus musculus with 4 samples.

Results

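The CREB family described here comprises 8 genes: Creb1, Atf1 and Crem, which encode the DNA-binding factors, Crtc1, Crtc2 and Crtc3, which encode their regulated coactivators, and Crebbp and Ep300, which encode the acetyltransferases CBP and p300. They were taken by gene name from a table of 51826 gene identifiers, and all 8 were found and passed the filter on low counts, as did 15467 genes in all. The members were chosen by membership of the gene family, and the family itself was taken up with the counts and fold changes of the GDF10 comparison already known, Creb1 among them. The differences below are therefore a description of these libraries and support no conclusion about the family. RNA was sequenced from C2C12 cells, a mouse myoblast line, in growth medium. Vehicle was given for 6 h to 2 cultures and recombinant GDF10, a growth and differentiation factor related to TGF-beta and the BMPs, for 6 h to another 2, which the labels call biological replicates. No dose is given in the sources used here, and both groups are the same established line, with no modification named in the labels.

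CREB factors bind a palindromic DNA element, the cAMP response element, as dimers through a basic leucine zipper. When cAMP activates protein kinase A, the kinase phosphorylates the factors within the kinase-inducible domain, and this form binds CBP or p300, which acetylate histones and other proteins. The CRTC proteins are held in the cytoplasm by salt-inducible kinases, enter the nucleus when these are inhibited or when calcineurin acts, and bind the zipper of CREB. In muscle cells CREB is known for its part in precursor proliferation and in the response to exercise and adrenergic signals, and p300 is a coactivator of MyoD and of SMAD proteins.

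Total counts were 29641165 to 35597310 per library, and 3 counts corresponded to 0.0840 to 0.101 CPM (reads of a gene scaled by library size). Counts differed beyond sampling noise in each pair of libraries, so none repeated another. A protocol label names a longissimus dorsi source while the other labels name C2C12. The 8 myoblast markers, which include Myod1, Myf5 and Des, summed to 2346 to 2360 CPM with vehicle and 2411 to 2431 with GDF10, and all 8 had counts. The 9 mature fibre markers summed to 81.6 to 94.0 CPM, mostly Actn3, and the immune and blood markers to 7.20 to 8.81, nearly all from Hba-a1 (149, 125, 183 and 164 reads in vehicle 1, vehicle 2, GDF10 1 and GDF10 2) and Cd68 (122, 88, 81 and 90), with Adgre1, Cd3e and Hbb-bs at 0 counts in all libraries. The 6 endothelial and epithelial markers summed to 4.03 and 5.17 CPM with vehicle and 6.34 and 6.89 with GDF10. Nearly all of this was Krt8 (log2 fold change 0.59, unadjusted p = 0.0314, edgeR), Krt18 had 0 and 0 reads and then 4 and 6, and Epcam was at 0 throughout. The part of these markers in the differences below was not tested. The 6 neural and glial markers summed to 3.87 to 6.31 CPM, with Olig2 at 0. The 5 adipocyte markers summed to 105 to 118 CPM, mostly Lpl, with Adipoq at 0, and the 5 osteoblast markers to 57.3 to 68.4, mostly Runx2, with Ibsp at 0. Fibroblast markers, several of which myoblasts express, summed to 3846 to 4193 CPM with vehicle and 4101 to 4454 with GDF10, with Lum and Thy1 at 0 to 2 counts.

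The element that these factors bind is shown first, as it stands in promoters of known CREB targets. RefSeq promoter windows on GRCm38.p6, the assembly of mm10, reach from 250 bases before to 50 bases after a start, and 23 of the 30 listed target genes matched one. The full element, TGACGTCA, reads the same on both strands, so a match covers both. Of all 32851 windows 1.79% held it, which is a share of windows and not of genes. Among 10492 tested genes with a window, 366 held it. The element was found in 4 of the 23 target genes, or 17.4%. Each match is printed with its flanks, 30 bases, 5′ to 3′ on the strand of the gene, with the element in capitals:
Areg: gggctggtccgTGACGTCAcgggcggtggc
Btg2: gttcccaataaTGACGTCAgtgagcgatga
Dio2: ctctttctcaaTGACGTCAagatctttagc
Dusp1: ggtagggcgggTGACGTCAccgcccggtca
The stretches lie at chr5:91139527-91139556 on the plus strand (Areg, an epidermal growth factor receptor ligand) and at chr1:134079303-134079332 (Btg2, an antiproliferative gene), chr12:90739115-90739144 (Dio2, which activates thyroid hormone) and chr17:26508597-26508626 (Dusp1, a phosphatase of MAP kinases), these 3 on the minus strand. The centre of the element lies 57, 162, 91 and 139 bases before the start in that order. Of the 8 family genes 6 matched a window, and these letters are in none of the 6. A match of letters is not evidence of binding.

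The comparison asked how transcript levels differ in myoblasts after 6 h with GDF10. Creb1 was the member with the largest difference, 2.88-fold lower with GDF10, while each of the other 7 had a 95% interval that included no difference. With edgeR's quasi-likelihood test, adjusted by Benjamini-Hochberg over all genes tested, 0 of the 8 members passed 0.05, against 25 of 15467 genes, or 0.162%. Of the same 15467 genes 12, or 0.0776%, passed with a lower level in GDF10. At an unadjusted p under 0.05 stood 1 member, Creb1, beside 5.94% of all genes. DESeq2 called 1 member, Creb1, beside 65 of 15467 genes, and limma-voom called 0, beside 11 of 15467. The GDF10 libraries lay below both vehicle libraries for 3 members, Creb1, Crtc1 and Ep300, and above them for 0, or 37.5% in either direction, where the share among all genes was 38.2%, and 19.4% for the lower direction. The median log2 fold change of the 8 was −0.14, beside 0.0029 for all genes tested. In such bulk libraries fewer cells with a transcript and less of it per cell cannot be told apart.

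**Figure D1:**
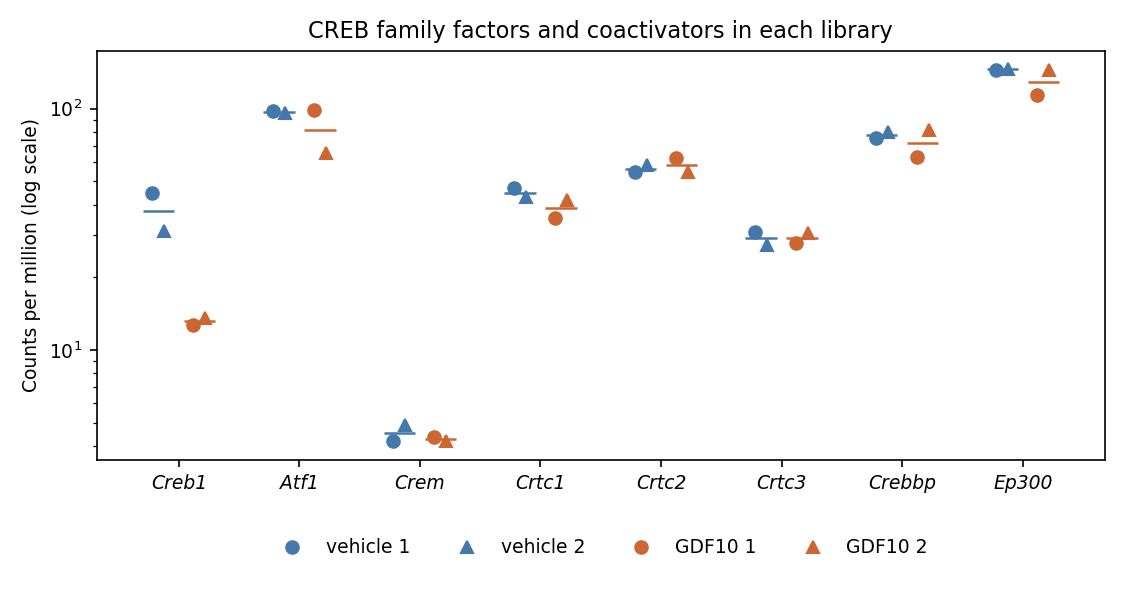
CPM (log axis) of each member in each library; blue marks vehicle, orange GDF10, circles replicate 1, triangles replicate 2 and short lines the group means of 2 libraries. Creb1 stands at 44.5 and 31.1 with vehicle and 12.7 and 13.6 with GDF10, while the groups of most other members lie close to each other.

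Creb1 encodes the founding factor of the family, which is present in most tissues. The gene (ENSMUSG00000025958) lies on the plus strand of chromosome 1, from 64532645 to 64604548 on mm10. It had 1590 reads in vehicle 1, 920 in vehicle 2, 380 in GDF10 1 and 474 in GDF10 2, or 44.5, 31.1, 12.7 and 13.6 CPM. Both GDF10 libraries were thus low and close together, the vehicle libraries were high and 1.43-fold apart, and the groups did not overlap: the lower vehicle library was 2.29-fold above the higher GDF10 library. Exact 95% Poisson intervals, which cover counting error only, were 42.4 to 46.8 and 29.1 to 33.2 CPM with vehicle and 11.4 to 14 and 12.4 to 14.9 with GDF10, so the gap between the vehicle libraries was larger than counting error. The group values were 37.8 ± 9.49 and 13.1 ± 0.650 CPM (mean ± SD, n = 2 per group). The log2 fold change was −1.52 with a standard error of 0.18 and a 95% interval of −1.98 to −1.07, or 2.88-fold lower with GDF10. Its unadjusted p in edgeR was 0.000178, the 35th smallest of 15467, and its adjusted p was 0.0785.

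The Creb1 estimate kept its sign under all 16 other settings tried, from −1.24 to −1.76, and its adjusted p was 6.11e-10 in DESeq2, 0.00652 in edgeR without vehicle replicate 2 and 0.0544 to 0.531 in the other 14. Without vehicle replicate 1, the higher of the pair, the estimate was −1.24 (adjusted p = 0.0663). Creb1 had the lowest GC content of the 8 members, 39.6% in its longest transcript, and over the tested genes, which are not independent replicates, Spearman's rho of the fold change was 0.256 with GC content and −0.258 with exon length. Its exons span 13742 bases, against a median of 3839 over the genes tested. With each library's GC trend removed the log2 fold change was −1.39, and with the exon length trend removed −1.36. These were limma fits on log2 CPM in place of the edgeR test, with adjusted p of 0.191 and 0.25. The part of either trend in the Creb1 difference was not tested.

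**Figure D2:**
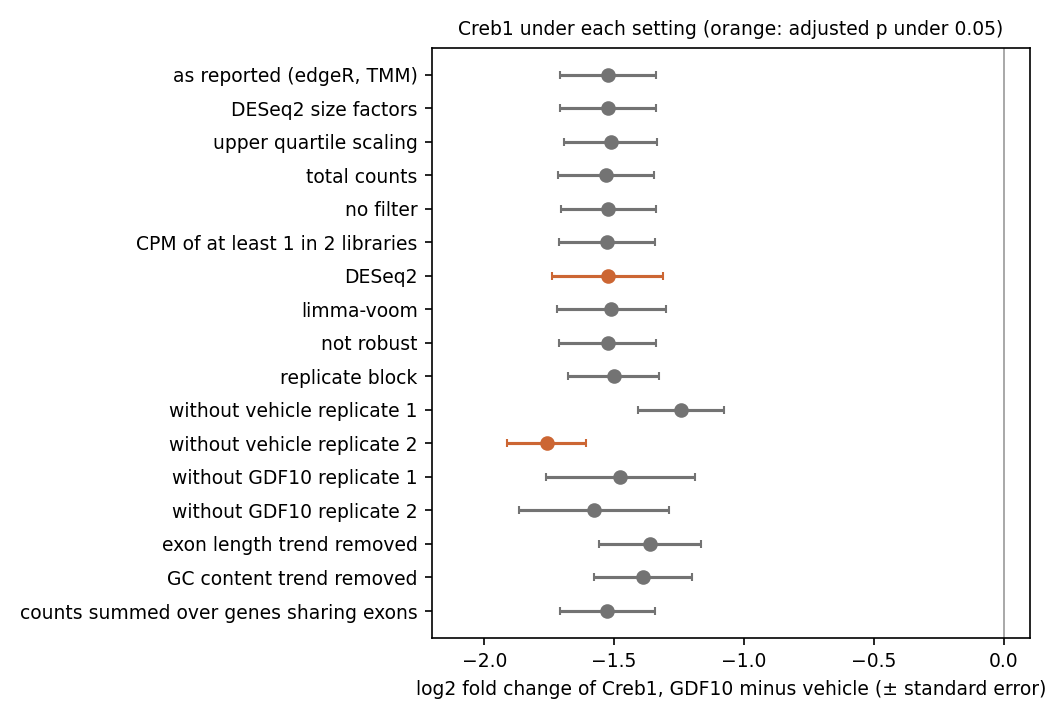
Log2 fold change of Creb1, GDF10 minus vehicle, with its standard error (horizontal axis) under each setting (rows); orange marks an adjusted p under 0.05. The values lie between −1.76 and −1.24, and DESeq2 and the fit without vehicle replicate 2 are the 2 in orange.

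No gene annotated in GENCODE M21 shares exon bases with Creb1. The annotation used to count the reads is not given, and the part of misassigned reads in its difference was not tested. Of its 13913 distinct 50-base words 34, or 0.244%, also occur in transcripts of other genes, 30 of them in Colec12. Colec12, a scavenger receptor gene, had 1117 and 988 reads in the vehicle pair and 922 and 1155 in the GDF10 pair, a log2 fold change of −0.02. The next gene, Mettl21a, encodes a methyltransferase and lies 1924 bases beyond the end of Creb1 on the other strand. It was looked up after the values of Creb1 were seen, and had 1250, 937, 1115 and 1212 counts in vehicle 1, vehicle 2, GDF10 1 and GDF10 2. In CPM the vehicle pair stood at 35 and 31.7 and the GDF10 pair at 37.2 and 34.8, so the groups of this neighbour overlapped (log2 fold change 0.11, 95% interval −0.13 to 0.35).

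Atf1 encodes a close relative of CREB1 that binds the same element and dimerises with it. The gene (ENSMUSG00000023027; chromosome 15, 100227819 to 100261244, plus strand) stood at 97.7 and 95.7 CPM with vehicle and 98.2 and 65.2 with GDF10. Only GDF10 replicate 2 was low, and GDF10 replicate 1 lay above both vehicle libraries. The log2 fold change was −0.24 with a 95% interval of −0.84 to 0.36. It was 0.02 without GDF10 replicate 2 and −0.57 without GDF10 replicate 1, where the adjusted p was 0.0367, so this difference rests on 1 library. Of the 3231 distinct 50-base words of Atf1 390, or 12.1%, occur in other genes, 370 of them in the processed pseudogene Atf1-ps, which had 15 and 12 reads in the vehicle pair and 6 and 11 in the GDF10 pair.

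Crem encodes a factor with activator forms and, from an internal promoter, the short inducible repressors known as ICER. It was the member with the fewest counts (ENSMUSG00000063889; chromosome 18, 3266048 to 3337748, minus strand), at 150 and 145 reads in the vehicle pair and 131 and 146 in the GDF10 pair. In CPM these are 4.2 and 4.90 against 4.37 and 4.19, and the groups overlapped (log2 fold change −0.09, 95% interval −0.53 to 0.35). Counts per gene do not tell activator forms from ICER. Crem shares 472 exon bases with Gm6225, a transcript on the other strand that had 8 and 0 reads in the vehicle pair and 0 and 11 in the GDF10 pair.

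Levels can be set beside each other per length of exon, here as CPM per kilobase of the union of annotated exons. On that scale Atf1 was highest in both groups, at 31.6 ± 0.457 with vehicle and 26.7 ± 7.64 with GDF10 (mean ± SD, n = 2). Crtc2 followed at 13.8 ± 0.683 and 14.3 ± 1.33, then Ep300 at 10.2 ± 0.0123 and 9.02 ± 1.5 and Crebbp at 5.73 ± 0.257 and 5.34 ± 0.969. Crtc1 stood at 4.01 ± 0.244 and 3.45 ± 0.426, Crtc3 at 2.95 ± 0.261 and 2.96 ± 0.187, Creb1 at 2.75 ± 0.691 and 0.956 ± 0.0473, and Crem at 0.772 ± 0.0840 and 0.726 ± 0.0219. With vehicle the libraries of Crtc3 and Creb1 overlapped and those of all other neighbours in this order did not. With GDF10 no neighbours overlapped, though the lower library of Crtc1, at 3.15, came close to the higher of Crtc3, at 3.09. With the longest annotated transcript as the length, an alternative chosen after seeing the data, the places of Creb1, Crtc1 and Crtc3 in this order shifted among the fifth to the seventh, and the other places stayed.

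Among the DNA-binding factors Atf1 made up 89.0% and 91.0% of the summed level per exon length in vehicle 1 and 2, and 95.1% and 92.6% in GDF10 1 and 2. The share of Creb1 was 9.03% and 6.58% with vehicle and 2.73% and 4.30% with GDF10, and that of Crem 1.99%, 2.42%, 2.20% and 3.09% in vehicle 1, vehicle 2, GDF10 1 and GDF10 2. The Creb1 share was thus lower in both GDF10 libraries, and Atf1 was the main transcript of the 3 in every library. These are shares of RNA per length and not of protein.

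The CRTC genes encode coactivators that join CREB at the zipper. Crtc1 (ENSMUSG00000003575; chromosome 8, 70382355 to 70439579, minus strand) stood at 46.8 and 42.9 CPM with vehicle and 35.2 and 41.9 with GDF10. The groups did not overlap, but GDF10 replicate 2 lay just below vehicle replicate 2 (log2 fold change −0.22, 95% interval −0.49 to 0.05, unadjusted p = 0.0953, adjusted p = 0.825 in edgeR). Crtc2, the main CRTC gene of liver gluconeogenesis (ENSMUSG00000027936; chromosome 3, 90254163 to 90264125, plus strand), stood at 54.4 and 58.3 CPM with vehicle and 62.3 and 54.5 with GDF10. Crtc3 (ENSMUSG00000030527; chromosome 7, 80586627 to 80688877, minus strand) stood at 30.9 and 27.3 CPM with vehicle and 27.9 and 30.5 with GDF10. The groups of both genes overlapped, with log2 fold changes of 0.05 (−0.18 to 0.29) and 0.0037 (−0.26 to 0.26), whose signs turned under some settings. Crtc2 made up 64.5% and 68.3% of the summed CRTC level per exon length with vehicle and 71.8% and 66.1% with GDF10.

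CBP and p300 are large, related acetyltransferases that act with many factors besides CREB. Crebbp (ENSMUSG00000022521; chromosome 16, 4081328 to 4213997, minus strand) stood at 75.2 and 80.1 CPM with vehicle and 63.0 and 81.6 with GDF10. Ep300 (ENSMUSG00000055024; chromosome 15, 81585351 to 81652077, plus strand) stood at 145.2 and 145.4 CPM with vehicle and 113.6 and 143.9 with GDF10. GDF10 replicate 1 was the lowest library for both genes, and GDF10 replicate 2 lay close to vehicle. The log2 fold changes were −0.10 (95% interval −0.42 to 0.21) for Crebbp and −0.17 (−0.45 to 0.11) for Ep300. Their exons span 13540 and 14273 bases, against a median of 3839 over the genes tested. Across genes, the deviation of GDF10 replicate 1 from the mean of the 4 libraries went down with exon length (Spearman's rho −0.332), while rho was 0.0801 to 0.195 in the other 3 libraries. With the exon length trend removed, in limma fits on log2 CPM, the log2 fold changes were 0.02 for Crebbp and −0.04 for Ep300. With the GC content trend removed in the same way they were −0.139 and −0.205. The part of either trend in these differences was not tested. The ratio between the pair hardly moved: Ep300 made up 64.7% and 63.3% of their summed level per exon length with vehicle and 63.1% and 62.6% with GDF10.

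**Figure D3:**
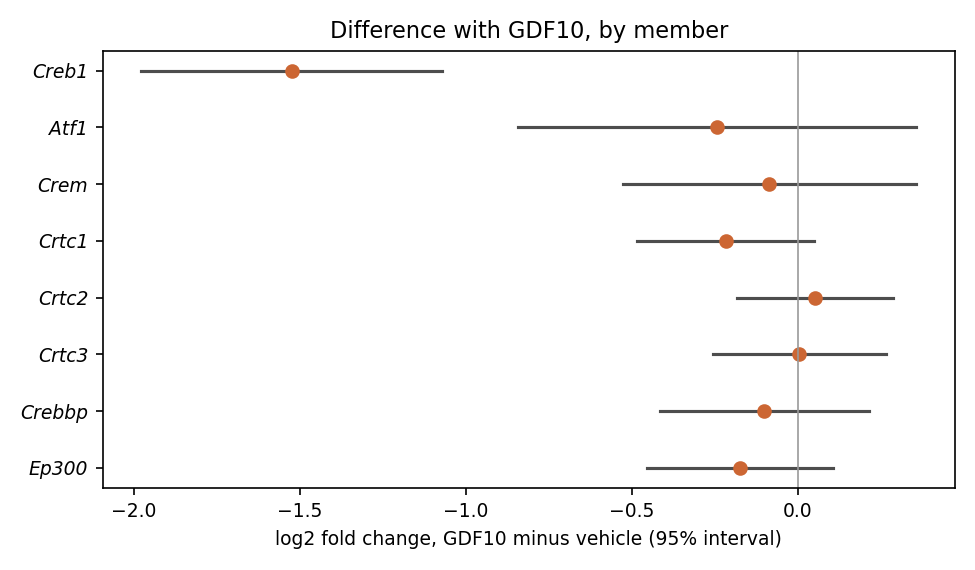
Log2 fold change of each member, GDF10 minus vehicle, with its 95% interval from the edgeR fit. The interval of Creb1 runs from −1.98 to −1.07, and those of the other 7 include 0.

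**Figure D4:**
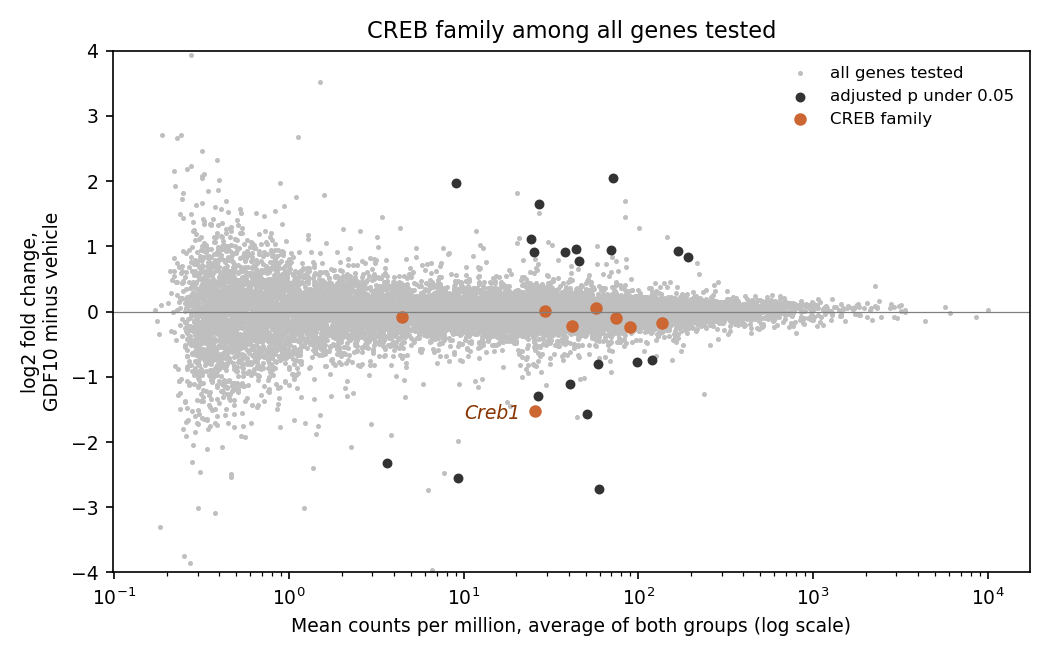
Mean CPM (log axis) against log2 fold change, GDF10 minus vehicle, for all genes tested (grey), those with an adjusted p under 0.05 (black) and the 8 members (orange); 15 genes beyond 4 in either direction are not drawn. Creb1 lies at −1.52, apart from most genes of its level, and the other members lie within the bulk of genes.

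The remaining genes of the pathway were taken from 6 lists of textbook membership. In none of these lists did a member pass over all genes tested in edgeR, DESeq2 or limma-voom. Of all 15467 genes tested 25 passed in edgeR, 65 in DESeq2 and 11 in limma-voom. At such shares lists of this size would hold few or none, so the absence of calls is not read as a result about the pathway. Counts at an unadjusted p under 0.05 below stand beside 5.94% of all genes tested, and over lists of this size a few genes reach it at that share. For CREB target genes 28 of 30 were tested, 12 with a positive and 16 with a negative log2 fold change, with a median of −0.0065. An unadjusted p under 0.05 in edgeR was reached by 2 of them, both with negative fold changes. These were Dio2, at 1.32 and 1.18 CPM with vehicle and 0.534 and 0.459 with GDF10 (log2 fold change −1.33, edgeR adjusted p = 0.729), and Pde4d, a cAMP phosphodiesterase gene, at 19.5 and 19.9 and then 15.1 and 15.4 CPM (−0.37, adjusted p = 0.801). Cebpb, a bZIP factor gene, stood at 241 and 214 CPM with vehicle and 268 and 252 with GDF10. Of the other genes with the printed element, Areg stood at 3.97 and 4.53 and then 3.0 and 3.41 CPM, Btg2 at 15.0 and 17 and then 17.1 and 17.3, and Dusp1 at 23.1 and 23.0 and then 28.2 and 22.8. The 4 printed elements thus belong to genes whose log2 fold changes ran in both directions, −0.40, 0.10, −1.33 and 0.14 for Areg, Btg2, Dio2 and Dusp1.

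Upstream of the factors, the cAMP and PKA list had 30 of 40 genes tested, 9 with a positive and 21 with a negative log2 fold change and a median of −0.09. All genes tested had 7856 positive and 7611 negative, and the lean of this list was not tested. In edgeR 3 of the 30 had an unadjusted p under 0.05, 1 of them with a positive fold change. Pde10a, a phosphodiesterase gene, stood at 5.21 and 5.68 CPM with vehicle and 7.27 and 7.23 with GDF10. Adcy5, an adenylyl cyclase gene, had 17 and 16 reads in the vehicle pair and 7 and 5 in the GDF10 pair, and Akap11, a PKA anchor, stood at 97.0 and 105.3 and then 80.5 and 91.7 CPM. None of the 24 tested CREB kinases and phosphatases had an unadjusted p under 0.05 in edgeR. In that list Camk4, a calcium-dependent CREB kinase gene, had 19 and 11 reads in the vehicle pair and 9 and 2 in the GDF10 pair. Ppp1ca, a phosphatase catalytic subunit gene, stood at 533 and 504 CPM and then 593 and 536, and Camkk1, which acts above Camk4, at 24.3 and 21.7 and then 14.5 and 22.0.

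Of 22 tested CRTC regulators 0 had an unadjusted p under 0.05 in edgeR, and the median was 0.02. The salt-inducible kinase genes Sik2 and Sik3 stood at 23.6 and 25.5 and at 71.1 and 79.5 CPM with vehicle, and at 16.8 and 22.5 and at 71.5 and 65.1 with GDF10. Prkaa1, of AMP-activated kinase, stood at 131 and 130 and then 115 and 118 CPM. Sik1, which is itself a CREB target and counts in both lists, had a log2 fold change of 0.11. Among 25 tested acetyltransferases, deacetylases and partners of CBP and p300, 1 was higher at an unadjusted p under 0.05, the deacetylase gene Hdac3, at 66.9 and 63.4 and then 71.3 and 90.5 CPM (0.31, edgeR adjusted p = 0.825). Kat6b, an acetyltransferase gene, and Ncoa2, a nuclear receptor coactivator gene, had log2 fold changes of −0.20 and −0.17. Of 17 other CREB/ATF bZIP factors 2 were higher at that level, Jdp2, at 98.3 and 100.6 and then 118 and 114 CPM, and Creb3l1, a membrane-bound factor, at 244 and 248 and then 279 and 286. Creb3 had a log2 fold change of 0.14. The medians of these last lists were −0.02 and 0.03.

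**Figure D5:**
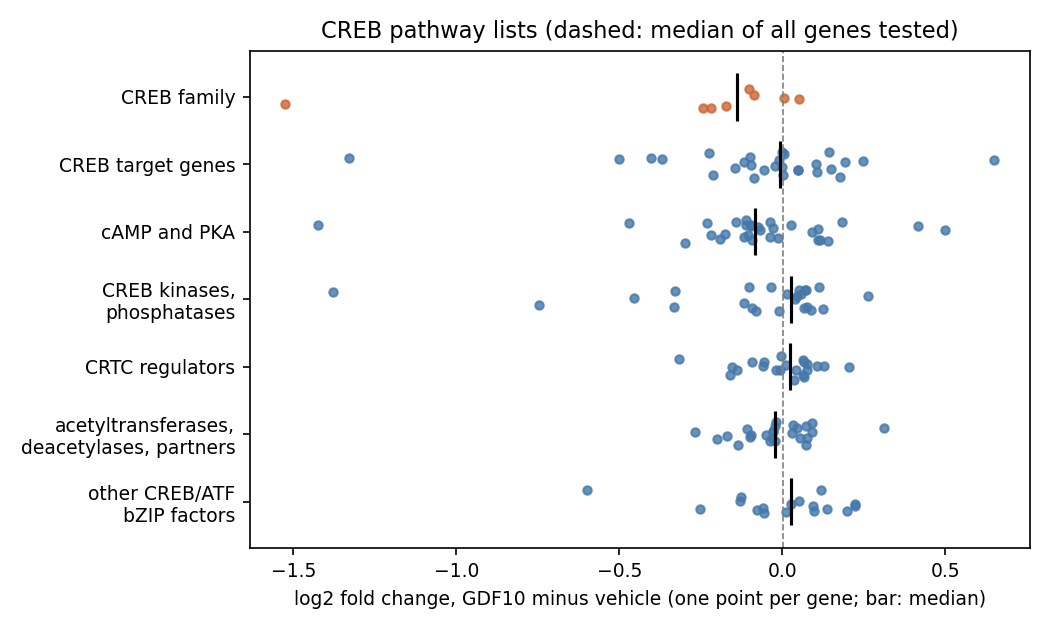
Log2 fold change, GDF10 minus vehicle, of each tested gene (points) in the CREB family and in 6 pathway lists (rows), with the list median (black bar) and the median of all genes tested (dashed line). List medians lie between −0.14 and 0.03, and Creb1 stands alone at −1.52 in the top row.

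The genes whose pattern over the 4 libraries was most like that of Creb1, by the root mean square difference in log2 CPM deviation among 10215 genes, were Ccnd3, Alkbh4 and Dnajb4, at 0.157, 0.261 and 0.267. Ccnd3, which encodes cyclin D3, stood at 81.1 and 71.1 CPM with vehicle and 22.3 and 29.0 with GDF10. Alkbh4, a demethylase gene, stood at 9.10 and 6.79 and then 3.50 and 3.87 CPM. Dnajb4, a co-chaperone gene, stood at 54.9 and 55.5 and then 26.7 and 24.6 CPM. Likeness over 4 libraries is given as a description only.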

How the data were processed

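The deposited table, made by the authors, holds raw read counts per gene, not normalized. Per the submitters' processing notes, which give no role or order, build mm10 was used with HISAT2 2.0, StringTie 1.3.3b, DESeq2 1.12.4, Trimmomatic 0.36, FastQC 0.11.2 and bedtools 2.26.0. How reads were counted, with which annotation and whether by strand, is not given in the sources used here, so reads of overlapping genes or copies may be misassigned. Groups and replicate numbers come from sample titles. Of 51826 identifiers 51633 matched GENCODE M21, which gave symbols, positions and exon lengths.

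The test was that of edgeR 4.0.16 under R 4.3.3 (filterByExpr, TMM, robust dispersions, quasi-likelihood test, no covariate), adjusted over 15467 genes at 0.05. CPM are scaled by TMM. By the common dispersion replicates varied with a coefficient of 14.3%, and p-values measure only the spread between these 4 libraries. DESeq2 1.42.0, limma 3.58.1 and the alternatives of the closing section were run beside it, and the fits were tested on simulated data. The members and lists were chosen with earlier results of these data known. Beside the members, the text names the 3 genes of lowest p in each list, the 3 most like Creb1 (mean CPM of at least 5, pseudocount 1) and genes sharing exons or words with a member; Mettl21a, Areg, Btg2, Dusp1, Colec12, Sik1 and genes called under 1 setting were added after their values were seen. A marker gene of the lists is not reported here.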

Additional observations from a re-analysis of the deposited data

How the results depend on the processing

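Over 16 other settings for each of the 8 members, 115 of 128 log2 fold changes kept their direction and their side of the threshold, 3 passed it and 10 turned sign, none of the last in Creb1, Crtc1 or Ep300. The count of genes called, 25, was 65 with DESeq2, 11 with limma-voom, 9 without robust dispersions, 6 with the GC content trend removed and 13 with counts summed over genes that share exons, and 24 to 154 when a library was left out (the lone library of its group is then assumed to vary like the other group), with 40 where vehicle replicate 2 was out, 91 where GDF10 replicate 1 was out and 154 where GDF10 replicate 2 was out. The count of family members called, 0, was 1 with DESeq2, beside 65 of all 15467 genes. It was also 1 at an adjusted p threshold of 0.1, beside 37 of all 15467 genes, and both times the member was Creb1. For CREB kinases and phosphatases and for acetyltransferases, deacetylases and partners the count was 0 to 1, with Ppp1cb and Kat6a called without GDF10 replicate 2. Leaving out a library moved the log2 fold changes of Atf1 between −0.57 and 0.0225, Crem between −0.20 and 0.0270, Crtc2 between −0.0466 and 0.14, Crtc3 between −0.0834 and 0.10 and Crebbp between −0.30 and 0.0717, and, with no turn of sign, Ep300 between −0.36 and −0.01 and Crtc1 between −0.35 and −0.10. Crtc3 also turned to −0.0018 with total counts and −0.0514 with the GC content trend removed, and Crebbp to 0.0199 with the exon length trend removed. Fits with a trend removed used limma on log2 CPM in place of the edgeR test. Their estimates and counts of genes called thus mix a change of test with the removal of the trend. The causes were not tested. The vehicle 1 and GDF10 1 deviations from their group means correlated at 0.0696, so the replicate numbers were not taken to pair the libraries; with the replicate block 23 genes passed, and Creb1 had a log2 fold change of −1.50 and an adjusted p of 0.135. With 2 libraries a group, the 95% intervals of the members other than Creb1 included 0.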

Other observations

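The element TGACGTCA was also looked up in the promoter windows of all tested genes, on either strand. Of 10492 tested genes with a window 366 held it. The shares of all 15467 genes given below also include genes without a window. In edgeR 1 of the 366 passed, beside 25 of all 15467 genes tested, or 0.162%. This count is not read as particular to genes with the element. The gene that passed was Xpnpep3, an aminopeptidase gene named here after its value was seen. Xpnpep3 went from a mean of 13 to 40.9 CPM with GDF10 (log2 fold change 1.65, edgeR adjusted p = 0.00652). At an unadjusted p under 0.05 stood 9 higher and 18 lower, or 7.38% of the 366, beside 378 higher and 540 lower, or 5.94%, of all 15467 genes tested, so neither the share nor its direction is read as particular to these genes. Their median log2 fold change was 0.0031, beside 0.0025 for all tested genes with a window. The letters alone do not show which of these genes a CREB factor binds in myoblasts.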
